A study of Mus musculus with 48 samples.

Results

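A set of 7 genes that make, load and sense the inhibitory transmitter GABA were followed through the first week after permanent occlusion of the middle cerebral artery (MCAO) in mouse brain. The members were Gad1 and Gad2, which make GABA, Slc32a1, which loads it into vesicles, and the GABA-A receptor subunit genes Gabra2, Gabra5, Gabrb2 and Gabrd. They were taken by name, 7 of 46983 genes listed in the count tables, and all 7 were among the 19970 genes with more than 10 reads over all libraries that were tested. The study sequenced 48 bulk libraries in 11 groups from 3-month-old male C57Black/6 mice, and the labels give no genotype or transgene. MCAO was made under isoflurane by coagulating and cutting the artery, sham mice had the same operation without coagulation, and control tissue was intact. There were 4 control libraries, 4 sham libraries at each of 3, 12 and 24 hours and days 3 and 7, and 5 MCAO libraries at each time except 24 hours, which had 4. These numbers follow the sample labels, whereas the series' design text speaks of 3 samples per time point. Each library held between 1522668 and 2826735 reads on genes with a median of 1935855, and the labels describe the tissue as injured cortex along with unaffected tissue around it, while the series' design text speaks of forebrain hemispheres. Markers of cortical glutamatergic neurons, which should be present in such tissue, summed to 9976 CPM (reads scaled to the library's size) or more in every library. Nothing beyond a count of mice per condition states how replicates were obtained, so each p-value measures the spread between these samples.

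GABA is made from glutamate by a pair of decarboxylases, of which GAD67 (Gad1) supplies most of the cell's GABA and GAD65 (Gad2) sits mainly at nerve terminals. The vesicular transporter VGAT (Slc32a1) fills synaptic vesicles, and these genes together mark GABA-releasing neurons, the interneurons of cortex and the projection neurons of striatum. Released GABA opens the GABA-A receptor, a chloride channel of 5 subunits in which alpha subunits set the sensitivity to benzodiazepines and beta subunits carry the GABA site with them. Receptors with the delta subunit (Gabrd), and many with alpha5 (Gabra5), lie outside the synapse and carry tonic inhibition. Levels are given as CPM, read counts scaled to the library's total with the trimmed mean of M-values (TMM) correction. In bulk tissue, fewer cells of a type and less RNA per cell cannot be told apart.

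The synthesis and transport genes all lie on mouse chromosome 2 (GRCm38, Gencode vM21): Gad1 at chr2:70553072-70602014, Gad2 at chr2:22622205-22693874 and Slc32a1 at chr2:158610767-158615748, all on the plus strand. The RefSeq promoter table held windows for 6 of the 7 members, and it had none for Gabrd. The 250 bases before the RefSeq start are printed for these 3 genes (GRCm38.p6, plus strand), because they are the genes that make and load GABA and because Gad2 and Slc32a1 rose with the striatal score described further on. The RefSeq start is not the start of the Gencode locus given above. The Gad1 window lies inside that locus, the Gad2 window runs past its start, and the Slc32a1 window lies before it. Capitals mark matches on either strand to the letters of the TATA box (TATAAA), of the CCAAT box (CCAAT) or of the GC box recognised by Sp1 (GGGCGG), and no match overlapped another.
Gad1 (chr2:70561879-70562128): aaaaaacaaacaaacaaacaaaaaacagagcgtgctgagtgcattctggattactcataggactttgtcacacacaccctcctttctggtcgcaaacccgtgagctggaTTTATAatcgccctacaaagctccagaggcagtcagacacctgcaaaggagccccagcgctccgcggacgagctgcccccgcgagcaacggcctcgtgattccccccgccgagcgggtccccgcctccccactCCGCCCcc
Gad2 (chr2:22622077-22622326): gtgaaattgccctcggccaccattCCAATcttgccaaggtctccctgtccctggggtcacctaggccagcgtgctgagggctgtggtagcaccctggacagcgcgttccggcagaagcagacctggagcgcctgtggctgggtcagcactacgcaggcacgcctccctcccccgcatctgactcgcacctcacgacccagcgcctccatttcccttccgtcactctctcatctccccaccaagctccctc
Slc32a1 (chr2:158610508-158610757): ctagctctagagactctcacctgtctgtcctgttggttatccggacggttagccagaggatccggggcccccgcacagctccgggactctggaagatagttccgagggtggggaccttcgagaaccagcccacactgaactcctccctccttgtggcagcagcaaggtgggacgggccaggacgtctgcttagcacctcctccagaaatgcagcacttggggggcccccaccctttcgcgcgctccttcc
The Gad1 window held 1 TATAAA and 1 GGGCGG match, the Gad2 window 1 CCAAT match, and the Slc32a1 window none of them. Of 32851 promoter windows of the same length, 12.4% held TATAAA, 33.9% held CCAAT and 32.7% held GGGCGG, so these matches describe the sequences only.

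The first question was whether MCAO changed any of these genes against sham at the same time. A gene was called where edgeR's quasi-likelihood test gave a Benjamini-Hochberg adjusted p under 0.01 over all 19970 genes and the log2 fold change exceeded 0.58 in size. By that rule 0 of 7 members were called at any time. The share of all genes called was 0.11% at 3 hours, 0.411% at 12 hours, 0.0901% at 24 hours, 4.02% at day 3 and 3.5% at day 7. With all 24 MCAO libraries set against all 20 sham libraries, times weighted equally, 0 of 7 members and 4.89% of genes were called. At an adjusted p under 0.05 with no limit on fold, 1 member passed at day 7 (Gabrd) and 1 in the pooled comparison (Gabrb2), against 9.24% and 14.3% of all genes. At 3 hours, 12 hours, 24 hours and day 3 that looser rule took 0 members and 0.28%, 1.39%, 0.23% and 8.23% of genes. DESeq2 called 0 members at each time and 1, Gabrb2, in the pooled comparison.

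Before adjustment, p was under 0.05 for 0 of 7 members at 3 hours (8.45% of genes), 0 at 12 hours (14.6%), 1 at 24 hours (8.8%), 1 at day 3 (21.6%), 3 at day 7 (23.5%) and 2 in the pooled comparison (26.4%). DESeq2 gave the same counts of members. MCAO and sham libraries did not overlap in CPM for 1 member at 24 hours (Slc32a1) and 1 at day 7 (Gabrd), and for 0 members at the other times. Over all genes the groups did not overlap for 3.58% at 3 hours, 3.29% at 12 hours, 5.83% at 24 hours, 7.14% at day 3 and 10.5% at day 7. The median log2 fold change of the 7 members was 0.40 at 3 hours, -0.34 at 12 hours, 0.26 at 24 hours, -0.38 at day 3 and 0.19 at day 7, while that of all genes lay between 0 and 0.056. Scaling to the spike-ins shifted the median of all genes to -0.098, -0.093, 0.14, -0.22 and 0.14 from 3 hours to day 7, so directions here are relative to TMM scaling. All 7 members had a log2 fold change below 0 at 12 hours and 6 of 7 at day 3, against 3, 2 and 3 of 7 at 3 hours, 24 hours and day 7.

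**Figure D1:**
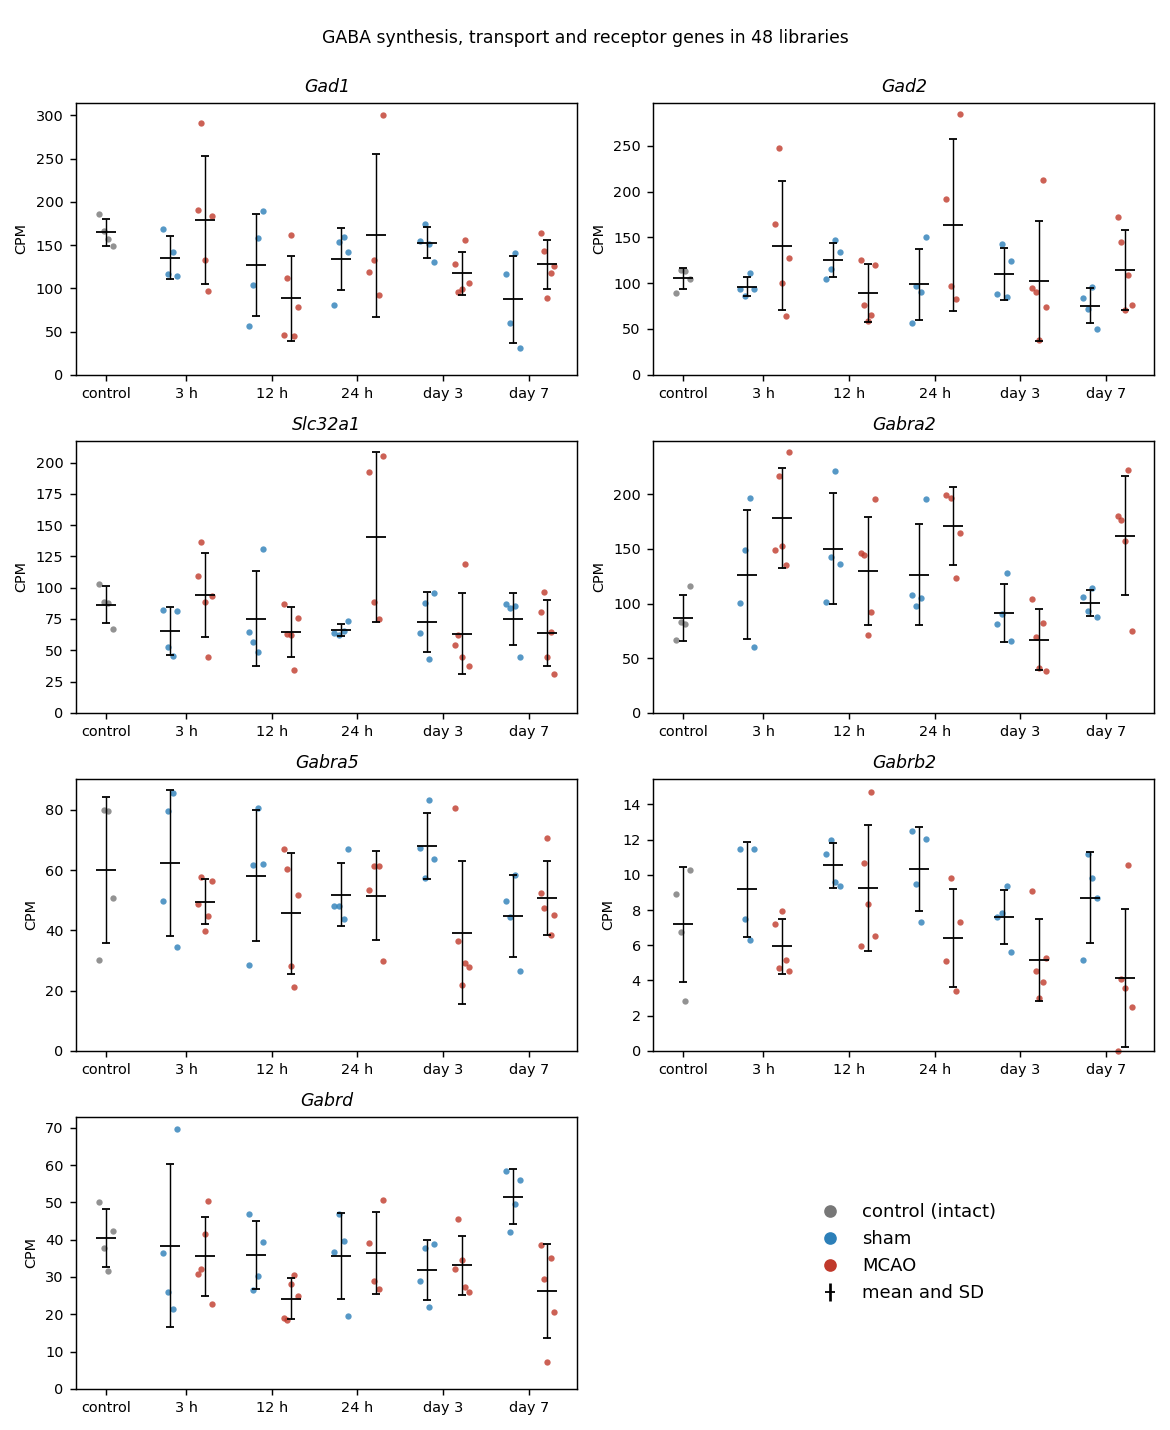
CPM (y axis, linear, from 0) of the 7 members in control, sham and MCAO libraries by time (x axis); each point is a library, and black bars give the mean and SD. In Slc32a1 at 24 hours all 4 MCAO points lie above the 4 sham points, and in Gabrd at day 7 all 5 MCAO points lie below the 4 sham points.

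Gad1, the enzyme behind most of the GABA in a cell, ranged from 31.5 CPM in a sham library of day 7 to 301 CPM in an MCAO library of 24 hours, with between 69 and 616 reads. Its group means ran from 87.3 ± 50.3 CPM (SD, n = 4) in sham at day 7 to 179 ± 73.5 CPM (SD, n = 5) in MCAO at 3 hours. No step between neighbours in that order of 11 means exceeded the larger SD of the pair. The log2 fold change of MCAO against sham was 0.40 (SE 0.33) at 3 hours, -0.53 (SE 0.34) at 12 hours, 0.26 (SE 0.35) at 24 hours, -0.38 (SE 0.33) at day 3 and 0.56 (SE 0.34) at day 7. Adjusted p lay between 0.327 and 0.886. At day 3, 4 of 5 MCAO libraries lay below every sham library, and the fifth lay within the sham range.

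Gad2, the enzyme of nerve terminals, had its lowest library, 38.5 CPM, and its highest, 284 CPM, both among MCAO samples. At 24 hours Gad2 stood at 192, 96.7, 82.2 and 284 CPM in MCAO replicates A to D and at 57.0, 96.7, 90.9 and 150.0 CPM in sham replicates A to D. At 3 hours the 5 MCAO libraries held 165, 248, 99.8, 63.8 and 128 CPM and the 4 sham libraries 94.1, 86.4, 111 and 93.8 CPM. MCAO replicates A and D at 24 hours and A, B and E at 3 hours lay above all sham libraries of their time, and the other MCAO libraries lay within the sham range or below it. Group means ran from 75.2 ± 19.3 CPM (SD, n = 4) in sham at day 7 to 164 ± 93.8 CPM (SD, n = 4) in MCAO at 24 hours, and again no neighbouring means differed by more than the larger SD. The log2 fold change at 24 hours was 0.72 (SE 0.36), with a 95% interval of -0.00003 to 1.44 and an adjusted p of 0.565, and without MCAO replicate D it was 0.32. At the other times it was 0.55 (SE 0.34) at 3 hours, -0.49 (SE 0.34) at 12 hours, -0.10 (SE 0.34) at day 3 and 0.61 (SE 0.35) at day 7, with adjusted p between 0.285 and 0.905.

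Slc32a1, the vesicular GABA transporter, was the member with the widest separation at 24 hours. Its level was 192, 88.8, 75.0 and 205 CPM in MCAO replicates A to D and 64.1, 61.9, 65.2 and 73.4 CPM in sham replicates A to D, or 140.4 ± 68.0 against 66.2 ± 5.01 CPM (SD, n = 4 each). All 4 MCAO libraries lay above all 4 sham libraries, but 2 of them by a small margin and 2, A and D, far above. The log2 fold change was 1.08 (SE 0.35) with a 95% interval of 0.38 to 1.77, an unadjusted p of 0.00303 and an adjusted p of 0.232, which misses the threshold. Without MCAO replicate D, which had the highest striatal marker level of all libraries (described below), it was 0.84. At day 7 the order did not hold, with 80.8, 96.7, 44.6, 64.3 and 31.3 CPM in MCAO and 87.0, 84.0, 85.0 and 44.3 CPM in sham and a log2 fold change of -0.23 (SE 0.33). At 3 hours, 12 hours and day 3 the log2 fold changes were 0.53 (SE 0.33), -0.22 (SE 0.33) and -0.20 (SE 0.33), with adjusted p of 0.697, 0.813 and 0.781.

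Libraries differed widely in the level of striatal markers, and 2 of the members moved with it. A striatal marker score was taken as the mean log2(CPM + 1) of 13 genes of striatal projection neurons, GABA neurons that lie beneath the cortex, among them Drd1, Adora2a, Penk and Ppp1r1b; a 14th, Drd2, had 9 reads in all and was not tested. The score ran from 4.20 in MCAO replicate C of day 7 to 8.64 in MCAO replicate D of 24 hours, a difference of 4.43 on the log2 scale. The summed level of the 13 genes ran from 332 to 6216 CPM in the same libraries, none of the 14 was at 0 in every library, and the most abundant, Ppp1r1b, averaged 385 CPM. At 24 hours the score was 7.40, 5.10, 4.69 and 8.64 in MCAO replicates A to D and 5.02, 6.84, 6.54 and 6.25 in sham replicates A to D. MCAO replicates A and D, the libraries with the highest Gad2 and Slc32a1 at that time, also had the highest scores. Single libraries did not always follow the score. At 12 hours MCAO replicate D had the highest MCAO score, 6.96, but the lowest MCAO level of Slc32a1, 34.1 CPM. At day 3 MCAO replicate D had both the highest MCAO score, 8.10, and the highest MCAO level of Gad2, 212 CPM. None of the 13 genes was called between MCAO and sham at any time; their median log2 fold change was 0.62, -1.48, 0.87, 0.32 and -0.10 from 3 hours to day 7.

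With group held in the edgeR model, Gad2 rose by 0.37 log2 units per unit of score (SE 0.056, 95% interval 0.26 to 0.48, adjusted p = 4.77e-06) and Slc32a1 by 0.33 (SE 0.057, 95% interval 0.21 to 0.44, adjusted p = 0.000107). These 2 of 7 members were called at an adjusted p under 0.01, against 1.6% of all genes. Gad1 had a slope of 0.18 (SE 0.071, adjusted p = 0.204) and Gabrd one of 0.18 (SE 0.062, adjusted p = 0.126), neither of which passed. The other 3 members had slopes of -0.013 (Gabra2), -0.14 (Gabra5) and 0.007 (Gabrb2), with adjusted p between 0.344 and 0.991. Whether the slopes of 2 members differ was not tested. With the score as a covariate, the log2 fold change of Slc32a1 at 24 hours was 0.85 (adjusted p = 0.189) and that of Gad2 0.47 (adjusted p = 0.587). At 12 hours, where the mean score was 5.42 in MCAO and 7.11 in sham, the covariate turned the direction of both, to 0.12 for Gad2 and 0.42 for Slc32a1. The oligodendrocyte markers, genes of myelin, moved with the score as well: all 7 had called positive slopes, with a median of 0.30.

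**Figure D2:**
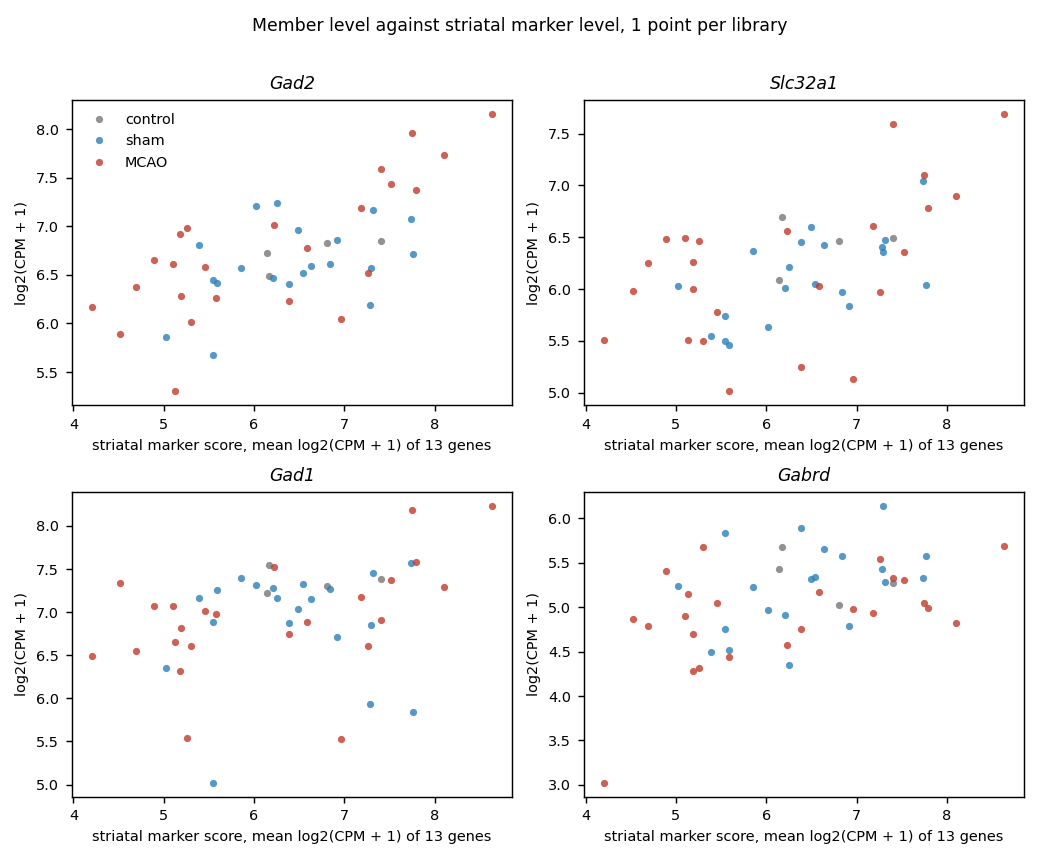
log2(CPM + 1) of Gad2, Slc32a1, Gad1 and Gabrd (y axes) against the striatal marker score, the mean log2(CPM + 1) of 13 genes (x axes), with 1 point per library coloured by control, sham or MCAO. Gad2 and Slc32a1 tend to climb with the score, from the library at 4.20 to the one at 8.64, though not in every library. Their slopes of 0.37 and 0.33 log2 units per unit come from the model with group held. No slope was fitted to the points as plotted.

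Among the receptor genes, Gabra2 (chr5:70957597-71095849, minus strand), an alpha subunit of synaptic receptors in forebrain, was higher in most MCAO libraries at day 7. It stood at 181, 176, 157, 223 and 75.2 CPM in MCAO and at 106, 93.3, 114 and 87.6 CPM in sham, so 4 of 5 MCAO libraries lay above all sham libraries and the last, replicate E, below them all. The log2 fold change was 0.70 (SE 0.30) with a 95% interval of 0.10 to 1.30 and an adjusted p of 0.136, which does not pass. It was 0.50 (SE 0.29) at 3 hours, -0.21 (SE 0.29) at 12 hours, 0.43 (SE 0.31) at 24 hours and -0.45 (SE 0.30) at day 3. In the fit of all 11 groups no comparison of Gabra2 against control passed the call rule, and its direction differed between times. Control libraries held 66.4, 83.2, 81.3 and 116 CPM and MCAO libraries of 3 hours 149, 216, 153, 135 and 239 CPM. That log2 fold change was 1.04 (SE 0.30) with an unadjusted p of 0.00115 and an adjusted p of 0.113, and the fit of those groups alone gave 1.06 with an adjusted p of 0.00357. Sham libraries of 3 hours ranged from 60.0 to 196 CPM, which spans most of the MCAO values.

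Gabra5 (chr7:57407672-57510059, minus strand), the alpha subunit of many extrasynaptic receptors, was lower in most MCAO libraries at day 3. It stood at 80.6, 36.6, 22.0, 29.3 and 27.8 CPM in MCAO replicates A to E and 67.5, 57.2, 83.2 and 63.7 CPM in sham replicates A to D. Replicates B to E lay below all sham libraries, while replicate A lay among the highest. The log2 fold change was -0.80 (SE 0.31) with a 95% interval of -1.42 to -0.17, an unadjusted p of 0.0138 and an adjusted p of 0.109. Without MCAO replicate A it was -1.23 with an adjusted p of 0.00406 and passed the call rule. At the other times it was -0.33 (SE 0.31), -0.34 (SE 0.31), -0.002 (SE 0.33) and 0.19 (SE 0.32) in order of time, with adjusted p of 0.658 or more. Gabra5 overlaps annotated genes on the opposite strand, and the sources used here do not state whether reads were counted by strand.

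Gabrb2 (chr11:42419757-42629028, plus strand), a beta subunit of the common synaptic receptor, was sparse, with 0 to 29 reads per library. The 24 MCAO libraries ran from 0 to 14.7 CPM with a median of 5.23, and the 20 sham libraries from 5.15 to 12.5 CPM with a median of 9.42. The sham libraries all stayed above 5 CPM, and the MCAO libraries reached both below and above their range. The pooled log2 fold change was -0.62 (SE 0.19) with a 95% interval of -0.995 to -0.250 and an adjusted p of 0.0161; 3.93% of all genes had a lower log2 fold change. DESeq2 gave -0.62 with an adjusted p of 0.00317, inside the call rule. Its log2 fold change was below 0 at all 5 times, at -0.63, -0.19, -0.70, -0.56 and -1.02, with SEs of 0.39 to 0.43. At day 7 Gabrb2 stood at 0, 4.07, 3.57, 10.6 and 2.51 CPM in MCAO replicates A to E and 5.15, 11.2, 9.81 and 8.67 CPM in sham, and its adjusted p was 0.129. Without MCAO replicate D, the highest of the 5, the log2 fold change was -1.75 with an adjusted p of 0.0107. The count of 0 in MCAO replicate A allows a level of up to 1.73 CPM, from 3 reads, by counting error alone.

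Gabrd (chr4:155384980-155398112, minus strand), the delta subunit of receptors for tonic inhibition, separated at day 7. It stood at 38.7, 29.5, 7.14, 35.0 and 20.7 CPM in MCAO replicates A to E and at 58.4, 42.0, 49.6 and 56.1 CPM in sham replicates A to D, or 26.2 ± 12.6 (SD, n = 5) against 51.5 ± 7.35 CPM (SD, n = 4). All 5 MCAO libraries lay below all 4 sham libraries, with replicate C the lowest at 12 reads. The log2 fold change was -0.96 (SE 0.30) with a 95% interval of -1.56 to -0.37 and an adjusted p of 0.0304, past 0.05 but not 0.01. Without MCAO replicate C it was -0.73 with an adjusted p of 0.122. Sham at day 7 was also the highest of the 11 groups, and the step up to it from control, at 40.4 ± 7.84 CPM (SD, n = 4), was the only step between neighbouring means of any member that exceeded the larger SD. Against control, the edgeR log2 fold change of MCAO at day 7 was -0.62 (SE 0.30) with an adjusted p of 0.323. At 12 hours the MCAO libraries held 18.9, 18.4, 28.2, 30.6 and 25.0 CPM and sham 46.9, 26.6, 30.3 and 39.4 CPM, with a log2 fold change of -0.57 (SE 0.30) and an adjusted p of 0.379. At 3 hours, 24 hours and day 3 it was -0.10, 0.026 and 0.054, and at 3 hours it was 0.34 without sham replicate D.

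Markers of other cells were called at day 7, when no member was called. The 12 markers of glutamatergic neurons summed to 15154, 13156, 9976, 13362 and 11705 CPM in MCAO replicates A to E and 25110.0, 20253, 22283 and 34244 CPM in sham, with 3 of 12 called lower, Nrgn and Rorb among them, and 1.43% of all genes. The 8 microglia markers summed to 859.7, 1139, 3564, 870.4 and 1216 CPM in MCAO and 416, 508, 442 and 570.3 CPM in sham, with 4 of 8 called higher, Cx3cr1, C1qa and C1qb among them, and 2.07% of all genes. MCAO replicate C, lowest for Gabrd, was the lowest for glutamatergic and striatal markers and the highest for microglia markers. Their part in the member values was not tested. No marker in either list was at 0 in every library, and their most abundant genes were Nrgn and Cx3cr1.

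**Figure D3:**
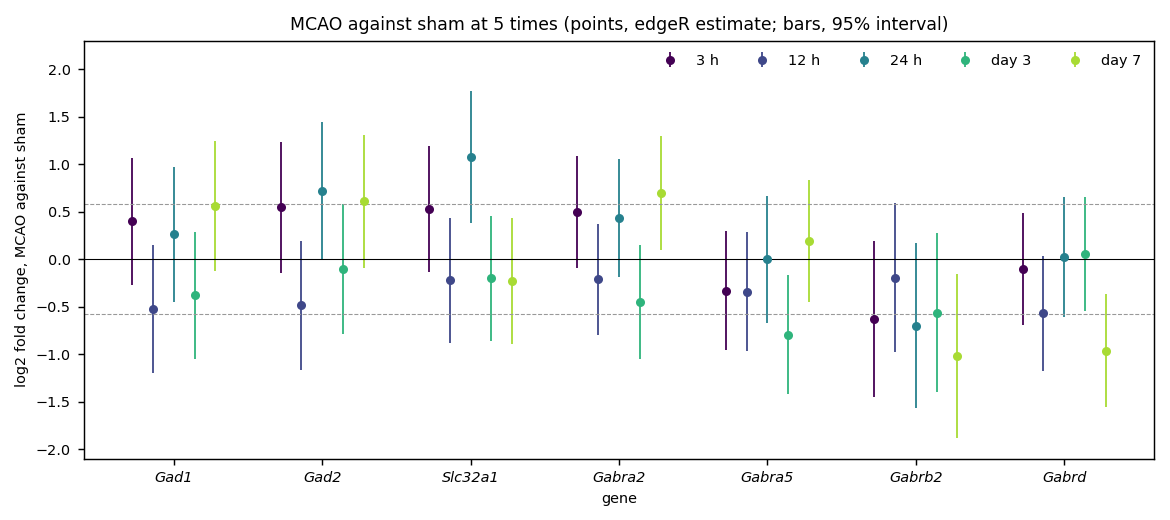
log2 fold change of MCAO against sham (y axis) for each member (x axis) at 5 times, with edgeR estimates as points and 95% intervals as bars; dashed lines mark 0.58 either side of 0. The intervals leave 0 on one side for Slc32a1 at 24 hours, Gabra5 at day 3 and Gabra2, Gabrb2 and Gabrd at day 7.

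Whether the effect of MCAO differed between times was asked with an F test over the 5 differences. It called 0 of 7 members at an adjusted p under 0.01, against 0.491% of genes, and the lowest adjusted p was 0.215, for Slc32a1. Unadjusted p was under 0.05 for 2 members, Slc32a1 and Gabra2, and for 17.8% of genes, with the same count by DESeq2. Among sham libraries alone, 0 members and 0.0851% of genes changed with time, and unadjusted p was under 0.05 for 0 members by either tool and for 7.65% of genes.

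Against the intact control, which the following comparisons share, 0 of 7 members were called at any time by edgeR's fit of all 11 groups or by DESeq2. From 3 hours to day 7, 0.13%, 0.856%, 0.28%, 3.1% and 1.5% of all genes were called by edgeR. Unadjusted p was under 0.05 for 1, 2, 2, 0 and 2 members by edgeR and 1, 3, 1, 0 and 2 by DESeq2, and for 9.15%, 16%, 11%, 19.8% and 14.9% of genes by edgeR. Gabra2 was at 1.04, 0.59, 0.98, -0.38 and 0.91, in order of time, with an adjusted p of 0.084 at day 7. At 12 hours Gad1 was at -0.89 (SE 0.34) and Gabrd at -0.75 (SE 0.30), with adjusted p of 0.159 and 0.199. Sham surgery itself, all 20 libraries against control, called 0 members by either tool and 0.02% of genes, with 0 members and 4.77% of genes under an unadjusted p of 0.05. Gabra2 was at 0.43 (SE 0.25) there and Gad1 at -0.39 (SE 0.27).

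The rest of the GABA pathway was read from 5 lists. Of 19 GABA-A subunit genes, 4 of them members, 16 were tested (Gabra6, Gabrp and Gabrr3 had under 10 reads). The median over the 16 was -0.35 at day 7, against 0.056 over all genes.

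Of 5 genes for GABA-B receptors, the slower G protein-coupled kind, Kctd12, an auxiliary subunit, was the 1 called at day 7, higher, where 2.07% of all genes were called higher and 1.43% lower. It stood at 71.2 ± 17.7 CPM (SD, n = 5) in MCAO and 27.4 ± 12.5 CPM (SD, n = 4) in sham, a log2 fold change of 1.38 (SE 0.26, adjusted p = 0.000453). Gabbr1, the most abundant of the list, was at -0.58 (SE 0.14, adjusted p = 0.00457), just short of the limit on fold. Gabbr2 was at -0.54 (SE 0.16, adjusted p = 0.0294). Of the 5 GABA-B genes, 4 were below 0 at day 7, with a median of -0.36. Their summed level ran from 831 to 990 CPM in MCAO and from 1180 to 1542 CPM in sham, with no overlap. Of single genes, 10.5% did not overlap at day 7, and no share was counted for sums. Sham at day 7 had the highest mean sum of the 11 groups, 1310 CPM, against 1164 CPM in control. Of 10 genes for the synaptic scaffold and receptor trafficking, Gabarap was called higher at 0.73 (SE 0.18, adjusted p = 0.00519) and its relative Gabarapl1, the most abundant of the list, lower at -0.61 (SE 0.14, adjusted p = 0.00279); both proteins also take part in autophagy. None of 6 genes for GABA uptake and breakdown was called at any time by edgeR, and their median log2 fold change at day 7 was 0.092. Nor was either chloride transporter called, and Slc12a5, the neuronal chloride exporter and the more abundant of the pair, was at -0.044, -0.46, -0.35, -0.51 and 0.036 from 3 hours to day 7 and at -0.27 (SE 0.094, adjusted p = 0.0471) in the pooled comparison. At day 3 the pair summed to between 337 and 439 CPM in MCAO and between 456 and 555 CPM in sham, with no overlap, and at day 7 the ranges overlapped. Of single genes, 7.14% did not overlap at day 3. Of the 6 uptake and breakdown genes and the 5 GABA-B genes, 1 each had a called slope on the striatal score, against 1.6% of all genes, with Abat, which breaks GABA down, at 0.17 (adjusted p = 0.00011), and Gabbr2 at -0.14 (adjusted p = 0.00506).

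Markers of cortical interneurons, the local GABA neurons, were mixed at day 7. Of 19 tested, 3 were called lower against sham and none higher, where 1.43% of all genes were called lower. Their log2 fold changes were below 0 for 11 and above 0 for the other 8, up to 0.92 (SE 0.46, adjusted p = 0.219) for Dlx2, an interneuron transcription factor named after its values were seen. Against sham none was called at an earlier time, while against control Erbb4 and Lamp5 were called lower at 12 hours and Vip and Lamp5 at day 7. Of all genes, 0.471% were called lower against control at 12 hours and 0.416% at day 7. Pvalb, the calcium buffer of fast-spiking cells, was at 30.1 ± 4.50 CPM (SD, n = 5) in MCAO and 154 ± 67.9 CPM (SD, n = 4) in sham, a log2 fold change of -2.36 (SE 0.52, adjusted p = 0.00259). Vip, a neuropeptide of another interneuron class, was at -1.59 (SE 0.33, adjusted p = 0.00137), and Cck, a neuropeptide that many pyramidal cells express as well and the most abundant of the list, at -1.05 (SE 0.24, adjusted p = 0.00284). In the pooled comparison Pvalb, Vip and Lamp5 were called lower, as were 0.386% of all genes, with values of -0.82, -0.90 and -0.80. The summed level of the list at day 7 was 1889, 1659.6, 1571, 1787 and 1558 CPM in MCAO replicates A to E and 2721, 2369, 2488 and 3745 CPM in sham replicates A to D, with no overlap. Of single genes, 10.5% did not overlap at day 7, and no share was counted for sums. Sham at day 7 had the highest mean sum of the 11 groups, 2830.5 CPM, against 2458 CPM in control. The median over the 19 was -0.15 and that over all genes 0.056. Gad1 and Gad2, which the same cells express, were at 0.56 and 0.61 at that time and Slc32a1 at -0.23; whether they differ from the called markers was not tested.

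Other marker lists gave the surroundings of these values. At day 3, 6 of 8 microglia markers and 3.76% of all genes were called higher, with a median log2 fold change of 2.07 over the list, and 2 of 9 astrocyte markers, Gfap at 4.42 and Aqp4 at 0.94. The astrocyte list as a whole was mixed, with 5 of 9 markers below 0 at day 3 and a median of -0.12. In the pooled comparison 4 astrocyte markers were lower and 2 higher at an adjusted p under 0.05 with no limit on fold. By that rule 5.11% of all genes were lower and 9.17% higher. Gfap, the filament protein of reactive astrocytes, was called higher from 12 hours on, and at day 7 Gja1 joined Gfap and Aqp4, while Slc1a2, the most abundant astrocyte gene, was at -0.012 (SE 0.14, adjusted p = 0.979). Called higher over all genes were 0.346% at 12 hours, 0.0801% at 24 hours and 2.07% at day 7. Of the pan-neuronal genes, Snap25 was called lower at day 3 and Rbfox3, Nefm and Eno2 at day 7, at -0.87, -0.97 and -0.66. At day 3, 0.26% of all genes were called lower. Blood granulocyte genes S100a8 and S100a9 were called higher at 12 hours and day 3, and their list summed to 1699 CPM in 1 library, MCAO replicate E of 12 hours, with S100a8 the most abundant, and to no more than 621 CPM in any other. In the pooled comparison, where 4.51% of all genes were called higher, Mmp8 and Retnlg of that list were called higher too, along with S100a8 and S100a9, as were the 6 microglia markers of day 3 (Cx3cr1, Csf1r, Aif1, C1qa and C1qb among them) and Gfap and Aqp4, while Neurod6 and Nrgn were called lower, at -0.80 and -0.59. In that pooled comparison 0.386% of all genes were called lower. P2ry12, a marker of resting microglia, was called lower at 12 hours, at -1.78 (SE 0.39, adjusted p = 0.00927), as were 0.0651% of all genes. The microglia list as a whole was mixed at that time, with 3 of 8 markers below 0 and a median of 0.16. Syt1, the most abundant pan-neuronal gene, was at -0.32 (SE 0.14, adjusted p = 0.139) at day 7, and Mbp, the most abundant oligodendrocyte gene, at 0.67 (SE 0.32, adjusted p = 0.189). Among 7 thalamic markers, of which Ntng1 was the most abundant, Prkcd was called higher at day 3 and Ramp3 lower at day 7. Both were called in the same direction in the pooled comparison. Each went against most of its list: 4 of 7 markers were below 0 at day 3 (median -0.13) and 2 of 7 at day 7 (median 0.73). At day 7, 1.43% of all genes were called lower. No choroid plexus marker was called between MCAO and sham. The choroid list, led by Ttr, summed to 507 CPM in control replicate A and to no more than 54.2 CPM in any other library, and without that control library no member was called against control.

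The genes most like each member were sought by Pearson's r of log2(CPM + 1) over the 48 libraries among 9880 genes with a mean of 10 CPM or more; the libraries share groups, depth and tissue makeup, so r is a description. Gad2 was most like Penk (r = 0.82), Tomm70a (r = 0.81) and Adcy5 (r = 0.80), and Penk and Adcy5 are striatal markers that were in the score. Slc32a1 was most like Pptc7 (r = 0.76), Gad2 (r = 0.73) and Pdyn (r = 0.72), which again include Gad2 and a striatal neuropeptide, Pdyn. Gad1 was most like Cdk17 (r = 0.89), Fbxl16 (r = 0.85) and Ubl3 (r = 0.85). For the receptor genes the closest were Hap1 for Gabra2 (r = 0.81), Dcaf12l1 for Gabra5 (r = 0.84), Rims2 for the sparse Gabrb2 (r = 0.64) and Pde8b for Gabrd (r = 0.81). No receptor member had another member among its 3 most similar genes.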

How the data were processed

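Polyadenylated RNA from 48 mouse brain samples was sequenced as 3′ tags. The authors trimmed the reads with Trimmomatic, removed ribosomal reads with SortMeRNA, aligned to GRCm38 with spike-in sequences using STAR 2.5.2b and counted reads per Gencode vM8 gene with HTSeq; the deposited counts are raw. A second deposited matrix, normalized with DESeq2 by the authors, was not used. Symbols came from Gencode vM21 for 46488 of 46983 genes, and 92 spike-ins were left out of library sizes and tests. No column lacked a sample, and no libraries were identical.

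Counts were scaled by TMM and fitted with edgeR 4.0.16 in R 4.3.3, in one quasi-likelihood fit of 11 groups to 19970 genes with more than 10 reads in total. Groups came from the sample labels. p-values were adjusted over all genes by Benjamini-Hochberg, and 95% intervals came from the same fit. The call rule, an adjusted p under 0.01 and a log2 fold change over 0.58, followed the study's thresholds. The pseudocount was 1 for log2(CPM + 1). Alternatives were DESeq2 1.42.0, its size factors, spike-in scaling, other filters, only the groups compared, a looser rule, the striatal score as a covariate, a replicate block and leaving out each library. The tests were checked on simulated data, whose results are not given here and on which no statement rests. Tags carry no molecular identifiers in the sources used here, so the limit on a count of 0 covers counting error only.

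The members, the gene lists and the striatal score were chosen with earlier results of these data known. All 7 members were named; pathway and marker genes were named where called or most abundant, except some that are not reported here, and the most similar genes were the top 3 by r.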

Additional observations from a re-analysis of the deposited data

Results flagged for a closer look

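Each member was examined in each of its 11 groups for a library far from the rest, by Dixon's test at its 95% critical value, and 3 of 77 groups held one, where chance alone gives about 5%. In sham at day 7, replicate D had 44.3 CPM of Slc32a1, while the other 3 libraries lay between 84.0 and 87.0 CPM. In sham at 24 hours, replicate D had 196 CPM of Gabra2, while the others lay between 97.3 and 108 CPM. In MCAO at day 3, replicate A had 80.6 CPM of Gabra5, while the others lay between 22.0 and 36.6 CPM. That last library decides the call of Gabra5 at day 3, which passed without it at a log2 fold change of -1.23.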

How the results depend on the processing

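The slopes of Gad2 and Slc32a1 on the striatal score were called under every alternative run. The count of called members was 0 in the reported comparisons and moved in these: at day 7 it was 1 (Gabrd) at an adjusted p under 0.05 with no limit on fold and 1 with no filter on low counts; for all MCAO against all sham it was 1 (Gabrb2) at that looser rule, 1 with DESeq2, and 0 to 1 leaving out a library (1 without MCAO 12 hours D, 24 hours B, day 3 A or day 7 D); at day 3 it was 0 to 1 leaving out a library (Gabra5, without MCAO A); for MCAO at 3 hours against control it was 1 (Gabra2) with only the groups compared (below, only these groups). Against sham, 28 of 952 member log2 fold changes under alternatives turned direction, none over 0.49 in size in the reported fit; of 42 against control, 10 turned under at least 1 alternative, none over 0.42 in size; the cause was not tested. The striatal covariate turned Gad2 (0.12) and Slc32a1 (0.42) at 12 hours and Gabra5 (0.0042) and Gabrd (-0.058) at 24 hours. Spike-in scaling turned Gabra5 at 24 hours (0.14), Gabrd at day 3 (-0.18, with the median of all genes at -0.22) and Gad1 in the pooled comparison (-0.017), and no filter turned Gabra5 at 24 hours (0.00083). Leaving out 1 library gave ranges of -0.30 to 0.34 for Gabrd at 3 hours, -0.39 to 0.20 for Slc32a1 and -0.40 to 0.036 for Gabra2 at 12 hours, -0.22 to 0.46 for Gad1, -0.096 to 0.18 for Gabra5 and -0.18 to 0.18 for Gabrd at 24 hours, -0.56 to 0.10 for Gad2 and -0.092 to 0.16 for Gabrd at day 3, -0.018 to 0.34 for Gabra5 at day 7, and -0.035 to 0.13 for Gad1 pooled.

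Replicate letters did not pair the samples: over 20 MCAO and sham pairs of the same letter, deviations correlated between -0.31 and 0.17, 8 over 0.1 and 4 under -0.1. With the replicate block, Gabrd turned at 3 hours (0.012) and 24 hours (-0.031), no member call changed, calls over all genes went from 82 to 53 at 12 hours, and called slopes on the striatal score from 319 to 188.

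Calls over all genes moved by more than 1.5 times as follows, first against sham. At 3 hours 22 became 14 with spike-ins, 58 with DESeq2, 58 with no filter, 44 with only these groups and 5 without sham C. At 12 hours 82 became 179, 171 and 13 with DESeq2, no filter and only these groups, 25 with the covariate and 21 without sham C. At 24 hours 18 became 39 with spike-ins, 44, 55 and 51 with DESeq2, no filter and only these groups, and 6 without sham B. At day 3 802 became 339 with only these groups, 441 without MCAO C and 1353 without MCAO A. At day 7 698 became 1096 with DESeq2, 302 with only these groups and 241 without sham D. Against control, 26 at 3 hours became 14 with spike-ins, 80, 74 and 90 with DESeq2, no filter and only these groups, 10 without control A and 40 without MCAO D; 171 at 12 hours became 283 with DESeq2, 63 with only these groups and 71 without control B; 56 at 24 hours became 120, 103 and 126 with DESeq2, no filter and only these groups and 32 without control A; 619 at day 3 became 224 with only these groups, 364 without MCAO C and 1075 without MCAO A; 300 at day 7 became 463 with DESeq2, 461 with no filter, 165 with only these groups and 82 without control A. For sham against control, 4 became 7 with spike-ins, 7 with no filter and 1 without control C. The time course of the MCAO effect went from 98 to 475 with DESeq2, 321 with no filter, 65 without sham day 7 B and 255 without MCAO day 3 A, and that within sham from 17 to 31 with DESeq2 and 30 with no filter. Spike-in scaling moved the lower calls from 4 of 22 to 5 of 14 at 3 hours, 52 of 802 to 131 of 594 at day 3, from 285 of 698 to 86 of 489 at day 7 and, against control, from 94 of 171 to 185 of 223 at 12 hours and from 58 of 619 to 345 of 694 at day 3. Depth limits Gabrb2 most, at 0 to 29 reads a library.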
